A study of Mus musculus with 2 samples.

Results

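Polyamine metabolism genes are described here across the fibre types and genotypes of mouse hindlimb muscle. The list holds 8 genes out of 27998 in the count tables, taken by their symbols, namely Odc1, Amd1, Amd2, Srm and Sms of synthesis and Smox, Sat1 and Paox of breakdown. The list was chosen by measured values, since the levels of some of these genes by myosin type and by library were known when it was drawn up, so those levels and ratios are given as a description.

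Polyamines are small positively charged molecules that bind RNA and DNA. Ornithine decarboxylase, encoded by Odc1, makes putrescine, and spermidine synthase (Srm) and spermine synthase (Sms) lengthen it with aminopropyl groups that S-adenosylmethionine decarboxylase (Amd1 and its copy Amd2) supplies. Spermine oxidase (Smox) turns spermine back into spermidine and releases hydrogen peroxide, while Sat1 acetylates spermidine and spermine and Paox oxidizes the acetylated forms. In skeletal muscle Smox is known to decline with denervation, fasting and immobilization and to sustain fibre size.

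Single-nucleus RNA-Seq was performed on gastrocnemius-plantaris (GP) muscle, with 1 library per genotype. The Ctrl library came from Net39 fl/fl mice without Cre, and the cKO library from HSACreERT2;Net39 fl/fl mice. Both groups were of the B6C3F1 background, both carried the floxed Net39 allele, and both were taken at 5 months of age and 3 months after tamoxifen. The labels' protocol states that each library pooled 3 GP muscles, while the sample titles name a single mouse. Either way no spread between animals can be had, so no test was run, and every interval below is a 95% interval that covers counting error only.

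Cre in this model is driven by the human skeletal actin promoter, which is active in the fibres, so nuclei outside the fibres are not its target. Net39, listed as Plpp7, had 408 UMIs (unique molecules counted) in Ctrl myonuclei, or 51.9 CPM, and 282 in cKO, or 41.8 CPM, where CPM is the UMIs of a gene per 1000000 UMIs of the nuclei it was summed over. In Myh4-main nuclei, those of type IIb fibres described below, it ran the other way, at 54.9 CPM (48.8 to 61.6) in Ctrl and 61.9 (53.2 to 71.6) in cKO, with intervals that overlapped. Since the deleted part is the first exon and the assay reads 3′ ends, these values do not check the deletion. After filtering, 3526 Ctrl and 3595 cKO nuclei were used, with a median of 2040 and 1611 UMIs, and 4 of their barcodes occurred in both libraries. Nuclei fell into 11 clusters, of which 4 held markers of other cell types and are called nuclei outside the fibres (539 in Ctrl, 300 in cKO), and the remaining 2987 and 3295 are called myonuclei. Malat1 took 26.6% of the UMIs of Ctrl myonuclei and 31.3% in cKO, and mitochondrial genes 0.296% and 0.367%. Over the 11468 genes with at least 20 UMIs in myonuclei, the log2 of cKO over Ctrl had a median of -0.08.

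Amd1 and Amd2 are shown first by sequence, since the likeness of these copies decides how their counts can be read. Amd1 (chr10:40287458-40302186, minus strand, GRCm38) has 8 exons in its longest transcript, whereas Amd2 (chr10:35708675-35711892, minus strand) is annotated as 1 exon. Their annotated transcripts, Amd1-201 of 3204 bases and Amd2-201 of 3218 bases, are identical at 99.1% of aligned positions, with 14 substitutions, and the last 522 bases at the 3′ end are the same. Of the 3155 stretches of 50 bases in Amd1-201, 2715 also occur in Amd2-201, and 7 further annotated genes, among them Amd-ps3 and Amd-ps4, share at least 1 such stretch. The sequences around their starts (RefSeq, GRCm38.p6, 120 bases before the start to 30 bases from it onward, 5′ to 3′) show where the likeness begins, with the shared run in capitals and the bases before it in lower case.
Amd1 (chr10:40302159-40302308, minus strand): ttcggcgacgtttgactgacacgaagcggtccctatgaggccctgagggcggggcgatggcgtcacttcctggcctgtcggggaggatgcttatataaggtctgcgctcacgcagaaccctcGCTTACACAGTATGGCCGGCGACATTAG
Amd2 (chr10:35711862-35712011, minus strand): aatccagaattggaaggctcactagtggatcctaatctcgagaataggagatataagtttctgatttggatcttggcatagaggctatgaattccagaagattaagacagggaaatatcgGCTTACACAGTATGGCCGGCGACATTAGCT
The longest run common to both 300-base windows is 48 bases long, and it starts within 2 bases of each annotated start. Upstream of that run the letters differ, and the Amd1 window is 63.0% G and C against 40.7% for Amd2.

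RefSeq windows from 250 bases before to 50 after the start were found for 7 of the 8 genes, 9 windows in all, with none for Srm. The letters CACGTG, which read the same on both strands, occurred in 1 of the 9 windows, which is 1 of the 2 windows of Sms, and in 7.15% of all 32851 windows. The MEF2 consensus, searched on both strands, occurred in 0 of the 9 and in 3.19% of all. Stretches of 150 bases are shown for Smox, the member with the largest fold between the libraries among the 6 with enough UMIs, and for the Sms window that holds the motif, in capitals. The Smox stretch lies around the start like those above, and the Sms stretch is the part of that window (chrX:157492238-157492537) farthest before its start.
Smox (chr2:131491742-131491891, plus strand): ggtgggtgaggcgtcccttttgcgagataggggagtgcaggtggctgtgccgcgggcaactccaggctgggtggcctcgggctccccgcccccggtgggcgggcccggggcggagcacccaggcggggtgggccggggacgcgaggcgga
Sms (chrX:157492388-157492537, minus strand): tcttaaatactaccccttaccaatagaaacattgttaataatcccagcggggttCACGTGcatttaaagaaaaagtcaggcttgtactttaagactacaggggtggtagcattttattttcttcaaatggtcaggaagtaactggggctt
The Smox window is 71.0% G and C, and the motif lies 196 bases before the start of that Sms window, which is 50.3% G and C. The other Sms window (chrX:157491319-157491618, minus strand) is 74.3% G and C and does not hold these letters.

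Across fibre types, Amd1 and Smox were highest in nuclei of type IIb fibres, those in which Myh4 gave 60% or more of at least 3 UMIs of the adult myosins Myh7, Myh2, Myh1 and Myh4. Such Myh4-main nuclei numbered 1911 in Ctrl and 1427 in cKO, Myh1-main nuclei 302 and 381, Myh2-main nuclei 166 and 325, and Myh7-main (slow) nuclei 19 and 275.

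Amd1 stood at 572 CPM (552 to 593) in Ctrl Myh4-main nuclei, 120 (97.0 to 146) in Myh1-main, 80.5 (55.4 to 113) in Myh2-main and 198 (85.3 to 390, 8 UMIs) in Myh7-main nuclei. For the cKO library the levels in the same order were 468 (444 to 494), 81.4 (63.7 to 102), 36.5 (23.6 to 53.9) and 70.5 CPM (51.0 to 94.9). Myh4-main nuclei thus held the highest level in both libraries, with no overlap of their interval with that of any other main myosin. Neighbouring Myh1- and Myh2-main nuclei of Ctrl did not differ beyond counting error (ratio 1.49, 0.992 to 2.28), nor did Myh1- and Myh7-main nuclei of cKO (1.15, 0.781 to 1.73).

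Smox had the same order of classes in Ctrl. It stood at 249 CPM (236 to 262) in Ctrl Myh4-main nuclei, 53.6 (38.8 to 72.2) in Myh1-main, 41.5 (24.2 to 66.4) in Myh2-main and 98.8 (26.9 to 253, 4 UMIs) in Myh7-main nuclei. Those of cKO held 129 (116 to 143), 28.3 (18.3 to 41.7), 13.2 (6.02 to 25) and 13.1 CPM (5.66 to 25.8). The 19 slow nuclei of Ctrl are too few to be placed, since the ratio of Myh4- over Myh7-main nuclei had an interval from 0.981 to 9.25.

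**Figure D1:**
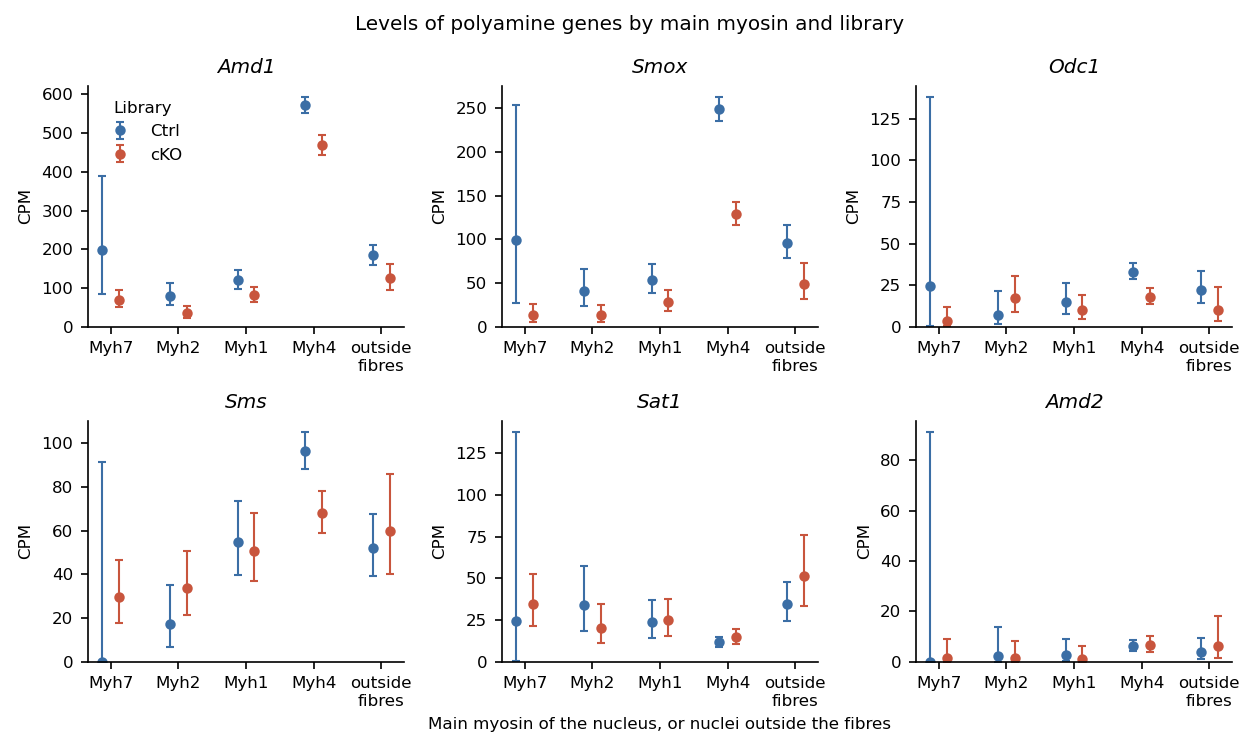
Levels in CPM (UMIs of the gene per 1000000 UMIs of the class) of 6 polyamine genes by main myosin and in nuclei outside the fibres, with Ctrl in blue, cKO in red and bars for exact 95% Poisson intervals. Amd1 and Smox peak in Myh4-main nuclei in both libraries, at 572 and 249 CPM in Ctrl and 468 and 129 CPM in cKO.

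By value, Odc1 and Sms were also highest in Myh4-main nuclei of the classes with a main myosin. Odc1 was not set apart from the next class in either library. Myh4- over Myh7-main nuclei stood at 1.34 in Ctrl (0.238 to 53.3), and Myh4- over Myh2-main nuclei at 1.03 in cKO (0.542 to 2.11). Myh7-main nuclei held 24.7 CPM of Odc1 in Ctrl (1 UMI) and 3.28 in cKO (2 UMIs). Odc1 stood at 33.1 CPM (28.5 to 38.4) in Ctrl Myh4-main nuclei, 15.0 (7.73 to 26.1) in Myh1-main and 7.32 (1.51 to 21.4, 3 UMIs) in Myh2-main nuclei, and at 18.0 (13.5 to 23.6), 10.2 (4.65 to 19.3) and 17.5 (9.06 to 30.6) in cKO. Sms stood at 96.3 CPM (88.2 to 105) in Ctrl Myh4-main nuclei, 54.9 (39.9 to 73.7) in Myh1-main and 17.1 (6.87 to 35.2) in Myh2-main nuclei, and at 68.0 (58.9 to 78.1), 50.9 (37.1 to 68.0) and 33.6 (21.3 to 50.4) in cKO. Slow nuclei of Ctrl had 0 Sms UMIs, where the limit set for a count of 0, which is 3 UMIs, stands at 74.1 CPM, while those of cKO held 29.5 CPM (17.5 to 46.6). In Ctrl the step from Myh4- to Myh1-main nuclei was 1.75-fold for Sms (1.29 to 2.44), and no neighbouring pair of cKO differed beyond counting error for either gene.

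Sat1, the acetyltransferase that starts polyamine breakdown, ran the other way. Its level was 11.5 CPM (8.85 to 14.8) in Ctrl Myh4-main nuclei against 23.7 (14.3 to 37.0) in Myh1-main and 34.2 (18.7 to 57.3) in Myh2-main nuclei. The cKO values were 14.6 (10.6 to 19.7), 24.9 (15.6 to 37.6) and 20.5 (11.2 to 34.3), with 34.4 (21.3 to 52.6) in Myh7-main nuclei. Myh1- over Myh4-main nuclei differed 2.05-fold in Ctrl (1.16 to 3.48), and in cKO no neighbouring pair did beyond counting error.

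Set against all other nuclei with a main myosin together (Myh7, Myh2 or Myh1), Myh4-main nuclei held 5.23 times the Amd1 level in Ctrl (4.41 to 6.25) and 7.29 times in cKO (6.12 to 8.74). The ratio for Smox was 4.87 (3.79 to 6.36) and 6.69 (4.86 to 9.43), for Odc1 2.59 (1.55 to 4.64) and 1.71 (1.03 to 2.92), for Sms 2.36 (1.77 to 3.22) and 1.72 (1.33 to 2.25), and for Sat1 0.425 (0.276 to 0.666) and 0.559 (0.367 to 0.846). With the main myosin called at 500 UMIs, the log2 of this ratio for Odc1 in Ctrl was 2.73, against 1.38 here, and that of Amd1 was 2.15, so the order of the genes by this ratio depends on how nuclei are sorted. Amd1 ranked at place 114 and Smox at place 141 from the top among 9543 Ctrl genes by this ratio, and at places 37 and 45 among 8856 cKO genes. Of the 6 members with at least 20 UMIs in Ctrl, 5 were past 2-fold higher and 1 past 2-fold lower in Myh4-main nuclei, where 9.54% and 8.09% of all genes were. Of 6 in cKO, 3 were past 2-fold higher and 0 lower, against 7.61% and 7.96% of all genes. The list was drawn up with this gradient in view, so nothing is read from these counts.

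Amd2 gave few UMIs and cannot be read apart from Amd1. It had 39 UMIs in Ctrl myonuclei and 23 in cKO, which is 1.06% (0.757 to 1.45) and 1.33% (0.846 to 1.99) of the UMIs of both copies. The share in Myh4-main nuclei was 1.06% in Ctrl and 1.36% in cKO, so Amd2 made up about the same small part of the pair wherever enough UMIs were counted. The study's methods state that Cell Ranger was run with its default settings, under which a read that fits more than 1 annotated gene is counted for none. Which of the further copies the annotation held is not given in the sources used here, and reads from the stretches the copies share may be missing from both counts, so the Amd1 and Amd2 values are uncertain.

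Srm and Paox were barely seen. Srm, the spermidine synthase, had 5 UMIs in Ctrl myonuclei and 11 in cKO (0.636 and 1.63 CPM), and Paox had 1 and 6 (0.127 and 0.889 CPM). Both fall under the 20 UMIs asked of a gene, and the intervals of their cKO over Ctrl ratios reached from 0.820 to 9.40 for Srm and from 0.847 to 321 for Paox. Paox overlaps Echs1 on the opposite strand, and Odc1 holds the small nucleolar RNA gene Gm22748 on its own strand, so their counts are uncertain where these genes overlap. Odc1 lies at chr12:17544794-17551505, Srm at chr4:148591503-148594993, Sms at chrX:157443855-157492287, Sat1 at chrX:155213132-155216449, Paox at chr7:140115799-140137224 and Smox at chr2:131491496-131525922 (GRCm38).

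Between the libraries, 4 of the 6 members with at least 20 UMIs were past 1.5-fold lower in cKO myonuclei, and of these 6 Smox had the largest fold while Amd1 had the largest difference in CPM. Smox stood at 200 CPM (190 to 210) in Ctrl and 71.0 (64.7 to 77.6) in cKO, a log2 ratio of -1.50 (-1.65 to -1.35). Odc1, the first enzyme of synthesis, stood at 30.4 CPM (26.7 to 34.5) and 13.6 (11.0 to 16.7), a log2 ratio of -1.16 (-1.52 to -0.81). Amd1 stood at 462 CPM (447 to 477) and 253 (241 to 265), a log2 ratio of -0.87 (-0.95 to -0.79), and Sms at 82.0 (75.7 to 88.5) and 54.2 (48.8 to 60.1), a log2 ratio of -0.60 (-0.79 to -0.41). Smox was therefore at 0.355 times, Odc1 at 0.448 times, Amd1 at 0.547 times and Sms at 0.661 times its Ctrl level.

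Sat1 differed in the opposite direction, at 14.5 CPM (12 to 17.4) in Ctrl and 19.6 (16.4 to 23.2) in cKO, a log2 ratio of 0.43 (0.06 to 0.80). For Amd2 the log2 ratio of -0.54 had an interval from -1.35 to 0.24. Of the 6 members with at least 20 UMIs, 4 were past 1.5-fold lower in cKO and 0 past 1.5-fold higher, where 13.4% and 9.25% of all genes were. Sms lay close to that fold, and the count was 3 with Malat1 and mitochondrial genes left out of the total, where its log2 ratio was -0.50. Its log2 ratio was also short of 1.5-fold without doublet removal (-0.51), over all nuclei used (-0.52), as the mean of single nuclei (-0.54) and without cluster 6 (-0.50). Among the 11468 genes, 217 had a lower ratio than Smox, 435 than Odc1, 787 than Amd1 and 1481 than Sms. The median log2 ratio of the 6 members was -0.73 beside -0.08 over all genes. These ratios helped to choose the list and are not support for a direction of the pathway.

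**Figure D2:**
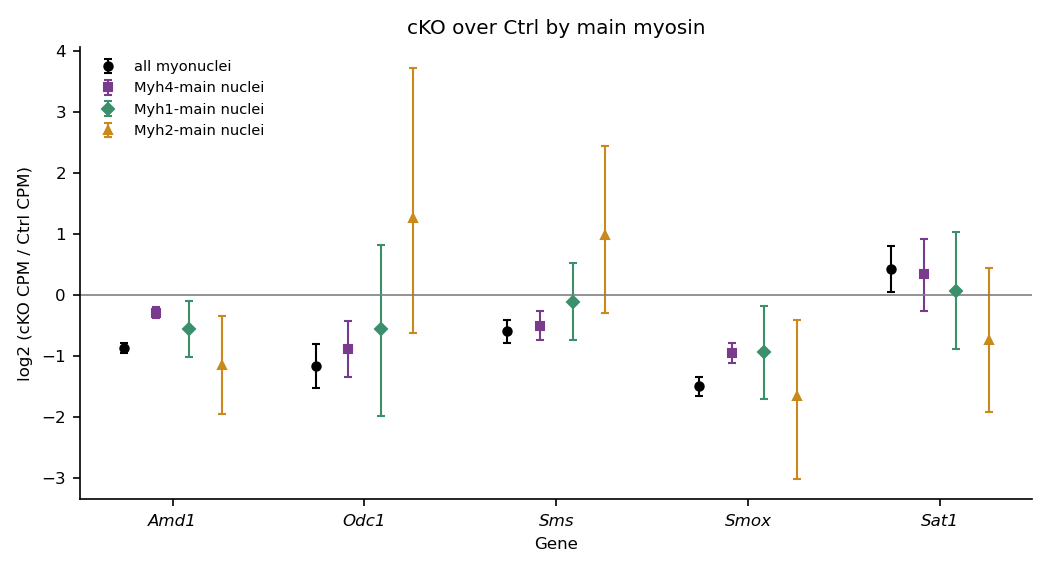
Log2 of the cKO over the Ctrl CPM for 5 polyamine genes, in all myonuclei and in Myh4-, Myh1- and Myh2-main nuclei, with bars for exact conditional 95% intervals and a grey line at 0. Smox lies below 0 in all 4 sets, from -0.92 in Myh1-main to -1.66 in Myh2-main nuclei, while Amd1 is nearer to 0 in Myh4-main nuclei (-0.29) than in all myonuclei (-0.87).

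Within Myh4-main nuclei the Smox interval lay below those of Amd1 and Sms, while the intervals of Odc1 and Sms overlapped. Smox was lower in cKO by a log2 ratio of -0.95 (-1.12 to -0.78), and Odc1 by -0.88 (-1.35 to -0.43). Amd1 and Sms differed less, with log2 ratios of -0.29 (-0.38 to -0.20) and -0.50 (-0.74 to -0.26), and the intervals of Sat1 (0.34, -0.25 to 0.93) and Amd2 (0.07, -0.82 to 0.93) held 0. The Sat1 log2 ratio turned to -0.34 with 80% asked of a main myosin, and that of Amd2 was 1.43 with the main myosin called at 500 UMIs, so no direction is read from either. These nuclei were spread unlike over the clusters, since 128 of Ctrl lay in cluster 6, with 35 of the 178 Odc1 UMIs of the class (103 CPM, 71.6 to 143), while cluster 6 held 23 cKO nuclei in all. Taking the Myh4-main nuclei of cluster 0 alone, the Odc1 log2 ratio was -0.72 (-1.35 to -0.12), and in those of cluster 3 its interval held 0 (-0.49, -1.55 to 0.48). Smox was lower in cKO in both, at -0.89 (-1.08 to -0.69) and -0.83 (-1.22 to -0.46), while the Sms intervals held 0 in both, at -0.24 (-0.53 to 0.058) and -0.52 (-1.13 to 0.062). Amd1 stood at -0.24 (-0.35 to -0.13) in cluster 0 and -0.13 (-0.33 to 0.073) in cluster 3. In the fewer Myh4-main nuclei of clusters 1 and 2 Amd1 differed more, at -1.27 (-2.17 to -0.45) and -1.32 (-2.08 to -0.59). Smox stood at -1.08 (-2.84 to 0.36) and -2.62 in these, with an interval below 0 in cluster 2 only. The Odc1 and Sms intervals held 0 in clusters 1 and 2. The size of the Amd1 difference thus varied by cluster. Of the 6 members with at least 20 UMIs in all Myh4-main nuclei, 2 were past 1.5-fold lower and 0 higher, where 12.5% and 8.62% of all genes were. With the main myosin called after thinning each nucleus to 500 UMIs, the log2 ratio was -0.15 for Amd1 and -0.043 for Sms. Fewer nuclei reach 3 myosin UMIs at that setting. The Sms difference thus varied with the nuclei taken, and the cause was not tested.

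In Myh1-main nuclei, 1 of 5 members was past 1.5-fold lower, namely Smox with a log2 ratio of -0.92 (-1.70 to -0.18), and 0 were higher, where 15.4% and 10.6% of all genes were. Amd1 there had a log2 ratio of -0.56 (-1.02 to -0.10), and Sms one of -0.11 (-0.74 to 0.52). Nuclei outside the fibres, which the Cre does not target, had like log2 ratios, -0.96 (-1.67 to -0.31) for Smox and -0.56 (-0.99 to -0.14) for Amd1, and the Ctrl levels of both genes in Myh1-main nuclei were below those outside the fibres. The Smox ratio outside the fibres was also like that of Myh4-main nuclei (-0.95). Ctrl Smox levels were 249 CPM in Myh4-main nuclei and 96.0 CPM outside the fibres. For Odc1 the log2 ratio outside was -1.12 (-2.87 to 0.30), and the cause of these ratios was not tested. In Myh2-main nuclei, 3 of 4 members were past 1.5-fold lower and 1 higher, where 19.0% and 10.4% of all genes were. The log2 ratios there were -1.66 (-3.00 to -0.41) for Smox and -1.14 (-1.95 to -0.35) for Amd1, while those of Sat1 (-0.74, -1.92 to 0.44) and Sms (0.98, -0.29 to 2.44) had intervals that held 0. Called at 500 UMIs, Myh2-main nuclei gave an Amd1 log2 ratio of 0.24, the opposite direction. Slow nuclei gave 8 Amd1 UMIs in Ctrl and 43 in cKO, and 4 and 8 Smox UMIs, with log2 ratios of -1.49 (-2.59 to -0.19) and -2.91 (-4.81 to -0.73). The Ctrl levels of these 19 nuclei were 1.07 times (0.456 to 2.15) the level outside the fibres for Amd1 and 1.03 times (0.275 to 2.72) for Smox, so no difference between the libraries is read from slow nuclei.

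The mix of fibre types also differed between the libraries, since Myh4-main nuclei made up 64.0% of Ctrl and 43.3% of cKO myonuclei. The difference in level over all myonuclei was therefore split into a part from the class shares of UMIs and a part from levels within the 6 myosin classes (4 main myosins, mixed, and under 3 myosin UMIs). For Smox, cKO minus Ctrl was -129 CPM, of which -96.9 CPM, or 75.1%, came from levels within classes. The same part was 86.4% for Odc1, 57.9% for Sms and 55.5% for Amd1, whose difference of -209 CPM split into -116 from levels and -93.1 from class shares. Nuclei with under 3 myosin UMIs (458 in Ctrl, 679 in cKO) weigh in this split: they held 415 CPM of Amd1 (371 to 463) and 148 of Smox (122 to 177) in Ctrl, but 110 (90.1 to 132) and 29.6 (20 to 42.3) in cKO. Over clusters in place of main myosins, a setting chosen after the data were seen, 49.9% of the Amd1 difference and 72.4% of the Smox difference came from levels, and calling the main myosin at 500 UMIs per nucleus gave 93.8% and 94.9%. At 500 UMIs fewer nuclei reach 3 myosin UMIs, so more of them, of any fibre type, fall in the class under 3. The part from class shares was -13.0 CPM for Amd1 at that setting. Since that split pools fibre types, it does not measure the fibre mix.

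Smox can be set beside Amd1 without the total, as its share of the UMIs of these 2 genes in the same nuclei. That share was 30.2% (29.0 to 31.5) in Ctrl myonuclei and 21.9% (20.2 to 23.7) in cKO. In Myh4-main nuclei it was 30.3% (28.9 to 31.7) and 21.6% (19.7 to 23.6), so the odds of a Smox over an Amd1 UMI in Ctrl were 1.58 times those in cKO (1.38 to 1.80). The Ctrl share was the larger too in cluster 0, which is high in Myh4 (30.7% and 22.3%), and in cluster 3, which is led by Sorcs1 (29.6% and 20.9%). Cluster 1, high in Myh2, had the opposite order, at 27.9% (23.1 to 33.1) in Ctrl and 33.9% (25.1 to 43.6) in cKO, with intervals that overlapped. In Myh1-main nuclei (30.9% and 25.8%) and Myh2-main nuclei (34.0% and 26.5%) the cKO share was the smaller too, but the intervals overlapped. Within Ctrl, the share was much alike in Myh4-, Myh1- and Myh2-main nuclei, at 30.3%, 30.9% and 34.0%, and it was 34.2% outside the fibres.

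**Figure D3:**
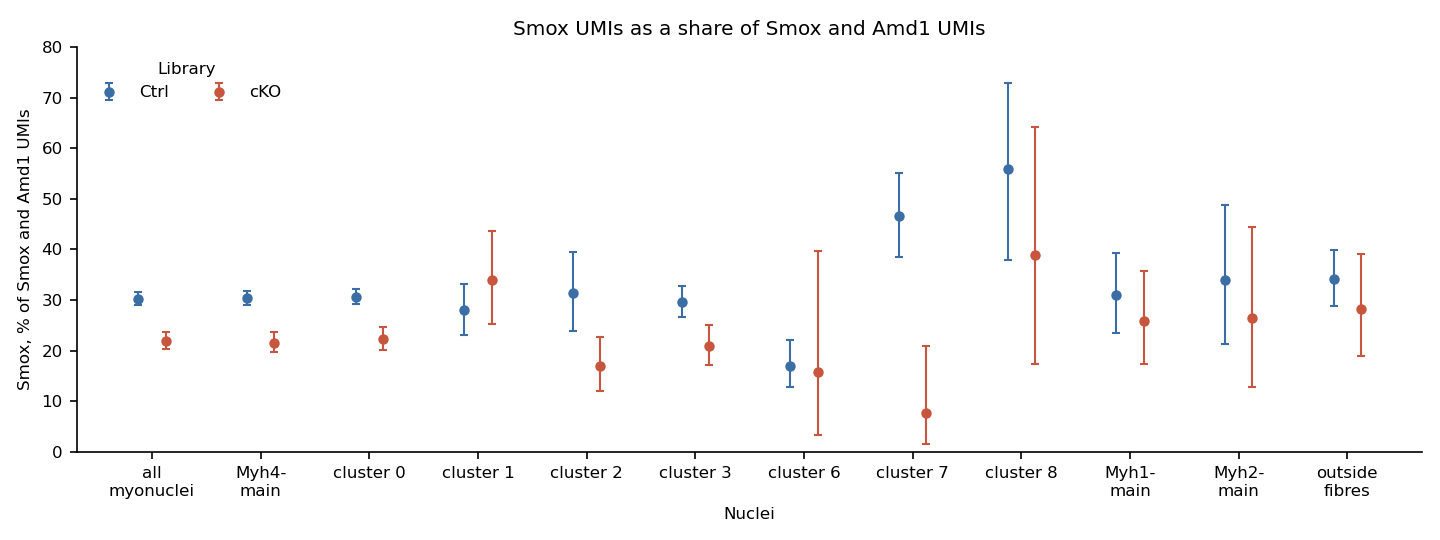
Smox UMIs as a percentage of Smox and Amd1 UMIs by set of nuclei, with Ctrl in blue, cKO in red and bars for exact 95% binomial intervals. The cKO share lies below the Ctrl share in the sets shown except cluster 1 (27.9% and 33.9%), with intervals apart in all myonuclei (30.2% and 21.9%), Myh4-main nuclei (30.3% and 21.6%) and clusters 0, 2, 3 and 7.

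At the level of single nuclei, each thinned to 500 UMIs, 12% of Ctrl Myh4-main nuclei (10.6 to 13.5) and 7.15% of cKO ones (5.87 to 8.61) held a Smox UMI, and 22.2% (20.4 to 24.2) and 19.4% (17.4 to 21.6) an Amd1 UMI. Without thinning the shares were 39.0% and 19.1% for Smox and 62.0% and 44.2% for Amd1, at median depths of 2313 and 1658 UMIs. Nuclei outside the fibres, thinned alike, held a Smox UMI in 4.08% (2.58 to 6.11) of Ctrl and 2.00% (0.737 to 4.30) of cKO nuclei. Myh2-main nuclei were at or below that level, with 3.01% in Ctrl and 0 of 325 in cKO. Both genes were seen in 49 of 1911 thinned Myh4-main nuclei of Ctrl, where the product of their shares gives 50.9, and in 26 of 1427 of cKO, where it gives 19.8.

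**Figure D4:**
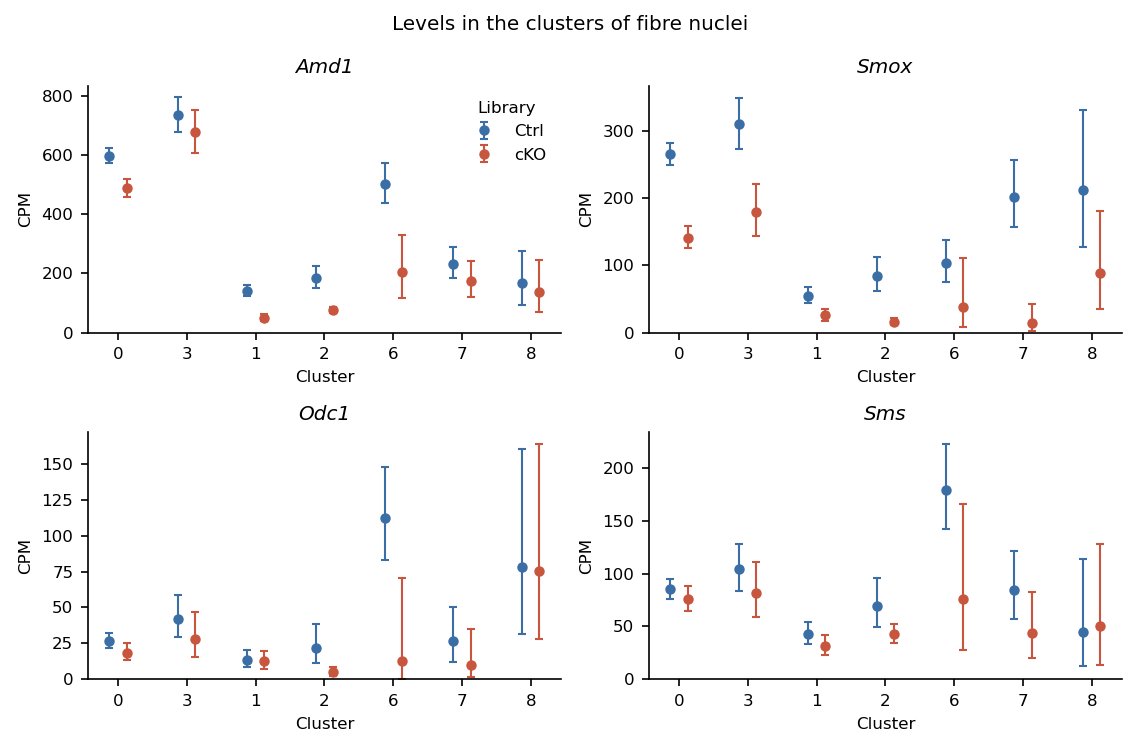
Levels in CPM of Amd1, Smox, Odc1 and Sms in the 7 clusters of myonuclei, with Ctrl in blue, cKO in red and bars for exact 95% Poisson intervals. Odc1 and Sms are highest in cluster 6 of Ctrl (112 and 179 CPM), whereas Amd1 and Smox are highest in cluster 3 (737 and 309 CPM).

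Among the clusters of fibre nuclei, the members did not share 1 peak. Cluster 6, in which Fbxo32 (a ubiquitin ligase of muscle atrophy) and Trim63 were high, held 188 Ctrl and 23 cKO nuclei. Its Ctrl nuclei stood at 112 CPM of Odc1 (83.2 to 148) and 179 of Sms (142 to 223), beside 26.3 (21.5 to 31.9) and 85.0 (76.1 to 94.6) in cluster 0. Smox was lower there than in cluster 0, at 103 CPM (75.5 to 138) against 265 (249 to 281), and made up 17% of Smox and Amd1 UMIs (12.8 to 22.1). Odc1 UMIs were spread over many of these Ctrl nuclei, 50 UMIs in 37 of 188, with at most 3 in a nucleus, while the 23 cKO nuclei held 1. Without this cluster, a setting chosen after the data were seen, the log2 ratio of cKO over Ctrl myonuclei was -0.90 for Odc1 and -0.50 for Sms.

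In cluster 7, which carries markers of the myotendinous junction, Ctrl nuclei held 69 Smox UMIs (202 CPM, 157 to 256) and cKO nuclei 3 (14.5 CPM, 2.99 to 42.4), while Amd1 stood at 231 (183 to 288) and 174 CPM (122 to 241). The Ctrl Smox UMIs came from 37 of 104 nuclei, with at most 7 in a nucleus. Smox was thus 46.6% of Smox and Amd1 UMIs in Ctrl (38.4 to 55.0) and 7.69% in cKO (1.62 to 20.9). In cluster 2, with slow-fibre genes and with 193 Ctrl and 949 cKO nuclei, Amd1 stood at 185 CPM (151 to 225) in Ctrl and 75.8 (64.9 to 88.0) in cKO, and Smox at 84.2 (61.7 to 112) and 15.4 (10.7 to 21.4). The nuclei of this cluster were unlike in the libraries, with Myh7 at 353 CPM in Ctrl and 1146 in cKO and Myh4 at 1098 and 506, and its Myh1-main nuclei held 0 Smox UMIs in 36 Ctrl nuclei and 8 in 108 cKO nuclei. Its Myh4-main nuclei held 17 in 49 Ctrl nuclei (106 CPM, 61.8 to 170) and 4 in 76 cKO nuclei (17.3 CPM, 4.71 to 44.3). Cluster 8, with markers of the neuromuscular junction, held 7 Odc1 UMIs in 33 Ctrl nuclei and 6 in 36 cKO nuclei (77.9 and 75.3 CPM). Since Smox and Amd1 were among the 10 leading genes of cluster 0, clusters are not independent of them, and the values by cluster are a description.

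Outside the fibres, Sat1 stood above its level inside them in both libraries, and Amd1 and Smox stood below theirs. The level outside over inside the fibres was 0.471 for Ttn, 0.573 for Myh4, 0.637 for Ckm and 0.711 for Acta1 in Ctrl, genes of the contractile fibre, and 0.484, 0.553, 0.585 and 0.762 in cKO. The same ratio was 0.400 (0.345 to 0.461) for Amd1 in Ctrl and 0.497 (0.378 to 0.641) in cKO, and for Smox 0.480 (0.389 to 0.586) and 0.696 (0.441 to 1.05). Odc1 stood at 0.735 (0.462 to 1.12) and 0.755 (0.239 to 1.83), and Sms at 0.637 (0.476 to 0.837) and 1.10 (0.726 to 1.61). In Ctrl the Amd1 interval lay below all 4 fibre genes, while the intervals of Smox, Odc1 and Sms each held at least 1 of them. In cKO the intervals of Amd1, Smox, Odc1 and Sms each held at least 1 fibre gene, and those of Smox, Odc1 and Sms reached above 1, as did that of Odc1 in Ctrl. The part of free fibre RNA in these UMIs was not tested. In nuclei picked by markers of other cell types and without a myosin UMI (239 in Ctrl, 148 in cKO) the Amd1 ratio was 0.178 (0.115 to 0.263) and 0.131 (0.0525 to 0.270), and that of Smox 0.164 (0.0786 to 0.303) and 0.133 (0.0160 to 0.483). Of the fibre genes Ttn stood there at 0.111 and 0.197, Ckm at 0.298 and 0.183 and Acta1 at 0.445 and 0.392, while Myh4 was at 0 by the choice of these nuclei. The Amd1 interval of Ctrl thus lay above Ttn and below Ckm and Acta1, and the other 3 intervals held at least 1 of these genes. The Amd1 level outside the fibres in Ctrl, 184 CPM (160 to 212), was above that of Myh1-main nuclei by 1.54-fold (1.20 to 1.99), so the low levels in Myh1- and Myh2-main nuclei may hold free RNA as well, and its part in them was not tested.

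**Figure D5:**
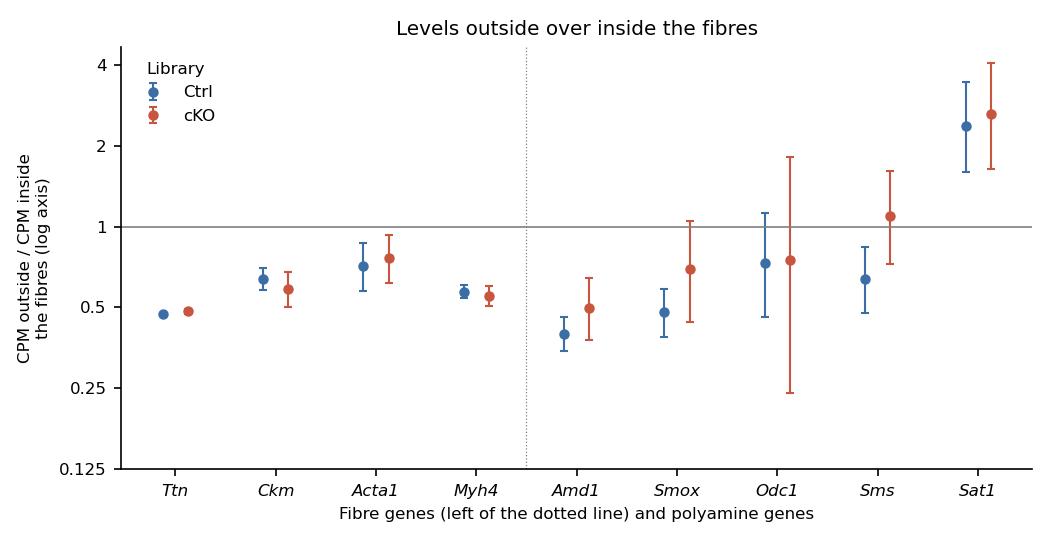
Level outside over level inside the fibres on a log axis, for 4 fibre genes left of the dotted line and 5 polyamine genes right of it, with Ctrl in blue, cKO in red and bars for exact conditional 95% intervals. Amd1 and Smox lie at 0.400 and 0.480 in Ctrl, with Ttn at 0.471, while Sat1 lies above 1 at 2.38 in Ctrl and 2.63 in cKO.

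Sat1 was 2.38 times higher outside than inside the fibres in Ctrl (1.59 to 3.47) and 2.63 times in cKO (1.64 to 4.05), at 34.5 CPM (24.3 to 47.5) and 51.4 (33.3 to 75.9). It was not set apart from every fibre class. Its level outside was 1.01 times that of Myh2-main nuclei in Ctrl (0.533 to 2.02) and 1.49 times that of Myh7-main nuclei in cKO (0.803 to 2.81). The immune-like cluster 9 stood at 193 CPM of Sat1 in each library, from 12 UMIs in 28 Ctrl nuclei (99.5 to 336 CPM) and 5 in 16 cKO nuclei (62.6 to 450 CPM). Ctrl nuclei of that cluster also held 17 Smox UMIs in 9 nuclei (273 CPM, 159 to 437), and cKO nuclei 0, where 3 UMIs, the limit set for a count of 0, stand at 116 CPM. Cluster 4, with markers of fibro-adipogenic progenitors, stood at 27.0 CPM of Sat1 (15.8 to 43.3) in Ctrl and 49.5 (26.4 to 84.6) in cKO. Srm gave 7 UMIs outside the fibres in Ctrl (6.52 CPM, 2.62 to 13.4) and Paox 4 in cKO (8.23 CPM, 2.24 to 21.1).

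Of 32 further genes of the pathway, 23 had at least 20 UMIs in myonuclei, of which 2 were past 1.5-fold higher in cKO and 4 past 1.5-fold lower, or 17 in between, where 9.25% and 13.4% of all genes were past that fold higher and lower. Their median log2 ratio was -0.18 beside -0.08 over all genes. Among antizymes and antizyme inhibitors, which set the turnover of ornithine decarboxylase, Azin1 stood at 30.0 CPM in Ctrl and 53.8 in cKO, a log2 ratio of 0.84 (0.60 to 1.08), and Azin2 at 5.22 and 2.22 (-1.23, -2.19 to -0.35). Azin1 was higher in cKO in Myh4-main nuclei (30.0 and 55.1 CPM) and in Myh1-main nuclei (36.2 and 90.4 CPM). It was higher in cKO outside the fibres too, at 17.7 CPM (10.7 to 27.6) and 67.9 (46.7 to 95.3), and in cluster 2 it stood at 64.1 CPM (44.6 to 89.1) in Ctrl and 57.7 (48.3 to 68.5) in cKO. Oaz1, the main antizyme, stood at 13.1 and 11.7 CPM, with a log2 ratio of -0.16 (-0.61 to 0.27).

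Among these 23 genes the lowest ratio was that of a transporter. Slc22a3, an organic cation transporter that carries polyamines, had 77 UMIs in Ctrl myonuclei (9.80 CPM, 7.73 to 12.2) and 6 in cKO (0.889 CPM, 0.326 to 1.93), a log2 ratio of -3.46 (-4.95 to -2.28). Of these UMIs, 67 in Ctrl and 3 in cKO came from Myh4-main nuclei, and the highest Ctrl level by cluster of fibre nuclei was in cluster 6, at 29.2 CPM (15.5 to 49.9, 13 UMIs). Slc12a8 had 17 and 5 UMIs (-1.55, -3.34 to -0.05), and Slc3a2, which pairs with amino acid transporters, stood at 15.8 and 19.8 CPM (0.33, -0.03 to 0.70).

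Mat2a, the S-adenosylmethionine synthase of tissues other than liver, stood at 233 CPM in Ctrl and 264 in cKO (0.18, 0.09 to 0.28), and 0 of the 2 measured supply genes was past 1.5-fold. Mtap, which clears the methylthioadenosine that Srm and Sms release, stood at 7.89 and 4.74 CPM (-0.74, -1.40 to -0.10), while the other 4 salvage genes were in between. Eif5a, whose protein carries hypusine made from spermidine, stood at 5.85 and 10.1 CPM (0.78, 0.22 to 1.36).

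By the shape of their levels over 12 profiles (6 myosin classes in each library), Smox and Amd1 were alike, with a Pearson r of 0.947 of log2(CPM + 10). Amd1 was the gene at place 8 of likeness to Smox among 5654 genes, behind Me1 (r = 0.972), Rc3h1 (0.971), Abcc4 (0.971), Dlg1 (0.967), Ttll7 (0.951) and others. The genes most like Amd1 were Pld5 (0.972), Ddi2 (0.970), 9530026P05Rik (0.969), Dopey2 (0.965) and Dlg1 (0.965). Odc1 was most like Tnfrsf21 (0.939), Psmb7 (0.922), Lhpp (0.909), Slc15a4 (0.896) and Ankrd11 (0.891), Sms like Gnaq (0.972), Rfx3 (0.967), Mvb12b (0.963), Cul1 (0.953) and Nfic (0.948), and Sat1 like Pde7a (0.939), Fbrsl1 (0.908), Etfa (0.888) and Tom1l2 (0.885). Sat1 ran against Amd1 (-0.728) and Smox (-0.683) over these profiles. The 12 profiles come from 2 libraries and some hold few nuclei, so these values describe the pattern only.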

How the data were processed

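Per the labels, nuclei of 3 pooled GP muscles per genotype were run on a 10x Genomics 3′ assay. The kit version differs between the labels and the methods and is not settled here. The authors deposited raw UMI counts per gene and barcode, and the submitters' processing notes name Cell Ranger 3.1.0 and the mm10 build. The study's methods state default settings and the GRCm38 genome; by default this version counts reads on annotated exons that fit 1 gene, and whether an annotation with introns as exons was used is not given in the sources used here.

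From 3863 Ctrl and 3994 cKO barcodes (10410316 and 8446070 UMIs), nuclei with at least 100 genes and 500 UMIs and at most 10% mitochondrial UMIs were kept (3833 and 3908). Scrublet in scanpy 1.11.5 called 0 doublets, so the 8% of nuclei with the highest scores were removed (307 and 313). Clusters followed SCTransform integration in Seurat 5.3.0 (3000 features, 25 components, resolution 0.3). A cluster counted as outside the fibres when at least 3 markers of such a type had at least 10 UMIs and at least 2-fold the level of the rest. UMIs were summed per library and class. Poisson, binomial and conditional ratio intervals (scipy 1.17.1, 95%) cover counting error only, and a count of 0 allows up to 3 UMIs. With 1 library per group a gene is called when it has at least 20 UMIs and passes 1.5-fold (2-fold between fibre types). Code was checked on counts drawn with known folds. Thinning used a fixed seed.

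Members and lists were chosen with earlier results of these data known. All 8 members are named, and of 32 other pathway genes those past 1.5-fold plus Oaz1, Azin1, Mat2a, Eif5a and Slc3a2. The 5 genes most alike are given for members with at least 200 UMIs, except that 1 is not reported here. Positions are from GENCODE M21 (GRCm38), windows from RefSeq.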

Additional observations from a re-analysis of the deposited data

How the results depend on the processing

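No paired analysis was possible because each genotype had 1 library, and the labels share only the number of a mouse. Of the values recomputed under other settings, 245 stayed within their counting interval or 1.5-fold of a count, 27 moved and 1 whose interval lay apart from 0 turned its direction (Amd1 in Myh2-main nuclei), and the cause was not tested. A further 11 log2 ratios of cKO over Ctrl changed sign, all with an interval that held 0 as reported, among them Sat1 in Myh4-main nuclei. With the main myosin called at 500 UMIs per nucleus, the log2 ratio of cKO over Ctrl in Myh4-main nuclei was -0.15 for Amd1, 1.43 for Amd2 and -0.043 for Sms, that of Amd1 in Myh2-main nuclei was 0.24, the log2 ratio of Myh4-main over other nuclei in Ctrl was 2.73 for Odc1, and the part of the difference from levels within classes was -196 CPM for Amd1, -24.6 for Sms and 4.56 for Sat1. At that setting the Amd2 ratio of Myh4-main over other nuclei had no finite value. Fewer nuclei reach 3 myosin UMIs there, so its split pools fibre types and does not measure the fibre mix. With 80% asked of a main myosin, the Sat1 log2 ratio in Myh4-main nuclei was -0.34, and Myh4-main over other nuclei gave 2.77 for Smox in Ctrl and 3.16 for Amd1, 3.29 for Smox and -1.77 for Sat1 in cKO. Without doublet removal Amd1 gave 2.58 for that ratio in cKO and 0.520 outside over inside the fibres in Ctrl. Without Malat1 and mitochondrial genes in the total, the Amd1 log2 ratio over all myonuclei was -0.77. Outside nuclei picked by markers alone gave ratios over the inside of 0.178 in Ctrl and 0.131 in cKO for Amd1, 0.164 and 0.133 for Smox, and 0.401 in Ctrl for Sms. At least 10 UMIs per gene gave 1 member past 1.5-fold higher, and a 2-fold threshold gave 2 members lower and 0 other pathway genes higher. The share of all genes at these thresholds is not given here, so nothing is read from these counts. Split over clusters, a setting chosen after the data were seen, 0.999 CPM of the Sat1 difference came from levels. Low counts limit what can be read of Srm, Paox and Amd2, and the small number of nuclei limits the slow class of Ctrl.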
